A study of Mus musculus with 42 samples.

Results

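The 9 genes described here encode proteins that bring retinol into reach of cells, convert it to retinoic acid, carry the acid, read it in the nucleus and destroy it: Rbp4, Dhrs3, Aldh1a2, Crabp1, Crabp2, Rara, Rarb, Rarg and Cyp26a1. They were listed by name and matched by symbol, and all 9 of the 9 listed genes were found among the 14296 genes analysed. Their RNA was followed in mouse embryonic stem cells of the W9.5 line (strain 129X1/SvJ) that were left to differentiate without direction into embryoid bodies after withdrawal of LIF, the cytokine that holds such cells in the pluripotent state. No genotype or drug distinguished the samples, so that the groups are 21 times after induction, every 6 h from 0 h to 120 h, each with 1 library of poly-A RNA from course A and 1 from course B. All cultures came from 1 cell line, and each library averages over the mixed cell types of a whole culture.

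Retinoic acid is a small lipid made from vitamin A. Retinol circulates bound to RBP4, is oxidised to retinal and then to retinoic acid, the last step by ALDH1A2 in the early embryo, while DHRS3 runs the first step backwards and returns retinal to retinol. Inside the cell the CRABP proteins bind the acid, and CYP26A1 oxidises it for disposal. The receptors RARA, RARB and RARG bind DNA with an RXR partner at repeats of a short hexamer, hold genes silent with corepressors when empty and recruit coactivators when the ligand is bound. In the embryo the pathway patterns the hindbrain, spinal cord and somites, and added retinoic acid drives embryonic stem cells towards neural fates. No retinoic acid was added in this course.

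Rarb and Cyp26a1 are textbook targets of the receptors, and the sequence by which they are known could be read from the RefSeq promoter windows (GRCm38.p6, 250 bases before and 50 after each start site). Windows were found for 8 of the 9 genes, and Crabp2 had none. A half-site was taken as AGGTCA, with G also allowed at base 1 and T at base 3, and a DR5 as 2 half-sites in the same orientation with 5 bases of any kind between them (NNNNN), on either strand. The search allowed overlaps. Of the 8 genes with a window, Rarb and Cyp26a1 held a DR5, against 31 of all 27025 genes with a window (0.115%). Counted by window, 32 of all 32851 held one (0.0974%). The same half-sites with NN between them (DR2) occurred in 0.268% of all windows and in none of those of the 9 genes. Both elements are shown with 6 bases on each side, on the strand of the gene, the half-sites in capitals:
Rarb, chr14:16575507-16575535, minus strand: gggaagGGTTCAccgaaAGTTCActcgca
Cyp26a1, chr19:37697770-37697798, plus strand: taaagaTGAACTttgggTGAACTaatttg
The Rarb element runs from position -53 to -37 relative to its RefSeq start, in the orientation of the gene, as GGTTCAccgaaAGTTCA. GENCODE vM21 places an exon and an untranslated region of 2 Rarb transcripts (Rarb-201 and Rarb-207) over it, so that these start upstream of the RefSeq start. The Cyp26a1 element runs from -32 to -16 and lies on the opposite strand, where it reads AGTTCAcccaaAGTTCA, with no annotated exon over it. Both share the AGTTCA half-site. A match in these letters describes the sequence only, and occupancy by a receptor was not measured.

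The reads counted on genes had a median of 29692082 per library, from 10120972 at 30 h in replicate B to 51652434, and 3 reads corresponded to between -3.91 and -1.44 log2 CPM (log2 of the reads counted per unit of library size, scaled as CPM). The summed CPM of the 8 pluripotency markers went from 4457 and 4833 at 0 h (A and B) to 2008 and 1940 at 120 h. Between these times 7 of them fell and none rose, beside 10.1% and 12.9% of all genes. Replicate B at 96 h stood apart: its 5 primitive streak markers summed to 589 CPM against 174 in replicate A, and its pluripotency markers to 2570 against 1563. Differences that start or end at 96 h are therefore given with and without this library. Each gene had 1 estimate of the spread over all libraries, so this library also enters the SE of the other comparisons. For those, fits without it are not given. Levels were compared with limma over all genes, and a change was called at an adjusted p below 0.0001. The labels give no batch or day of a library.

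Over the whole course the F test called all 9 genes (limma adjusted p between 1.08e-19 for Crabp2 and 9.13e-05 for Aldh1a2), as it did 74.6% of all genes. With the replicate block the count was 8, since Aldh1a2 missed the threshold (adjusted p = 0.000115), and total-count scaling lost the same gene (adjusted p = 0.00014). The genes differed in when and how far they moved. Cyp26a1 had the widest range, 8.67 on the log2 scale between its lowest and highest mean, followed by Rarb with 6.02, Crabp2 with 4.67, Dhrs3 with 4.25 and Rbp4 with 3.29. Aldh1a2, Rarg and Crabp1 ranged over 2.70, 2.50 and 2.40, and Rara over 1.05. The range of Cyp26a1 and Rarb includes time points with no read in a library, where the value is set by the offset of the transformation.

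**Figure D1:**
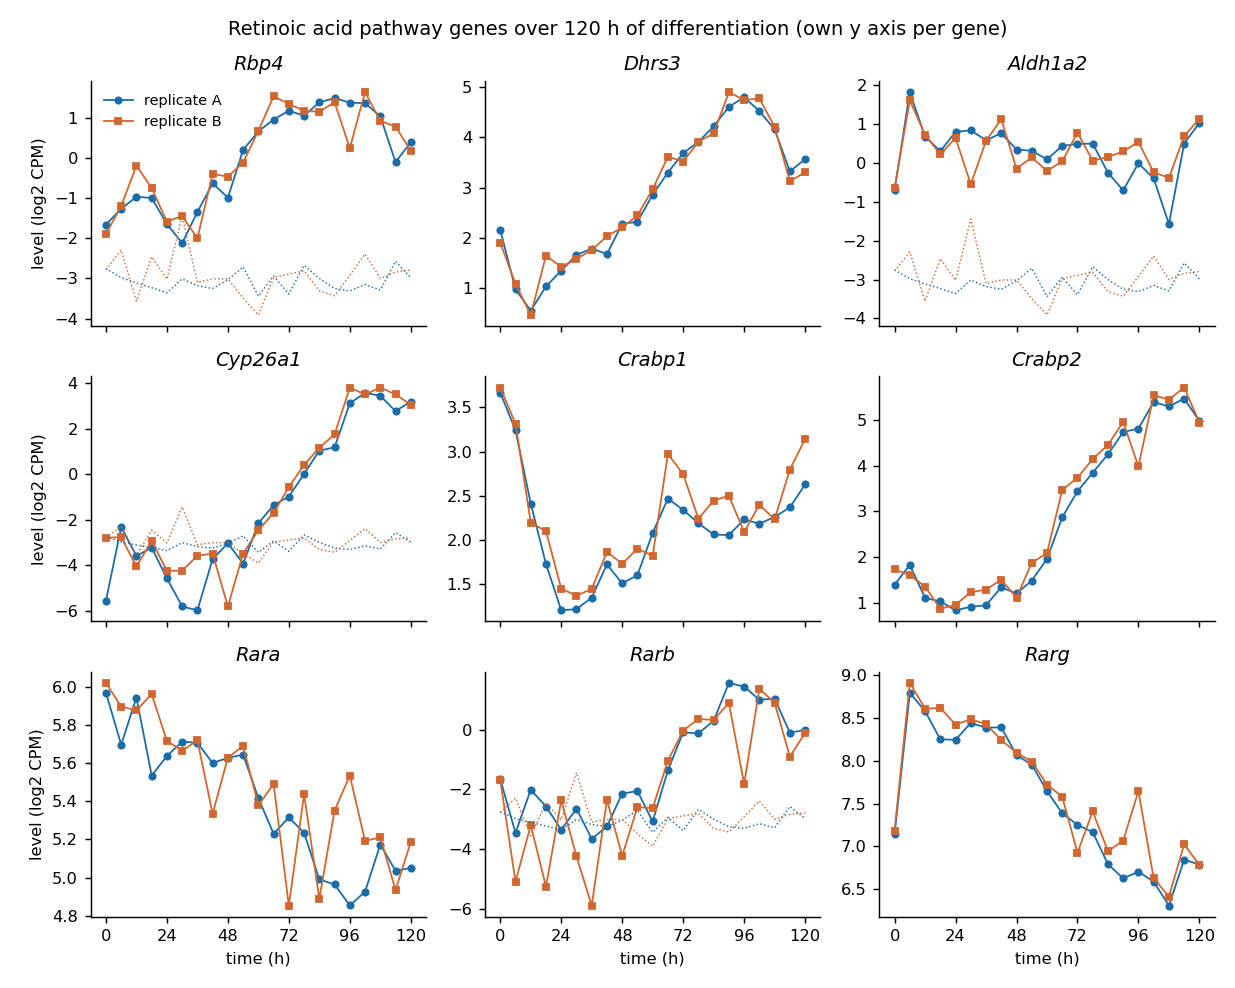
Level of each gene in log2 CPM against time in hours, with replicate A as circles and replicate B as squares; dotted lines mark the level of 3 reads in each library for the genes with few reads. Dhrs3, Crabp2, Cyp26a1, Rarb and Rbp4 had higher means at every time after 72 h than at every time before 48 h, Rarg was highest at 6 h in both replicates, and the courses separate at 96 h for Rara, Rarb, Rarg, Crabp2 and Rbp4.

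The receptors ran in different directions. Rarg (ENSMUSG00000001288.8, chromosome 15, 102234938 to 102257517, minus strand), a receptor known for its part in axial and skeletal development, was the highest of the 3 per exon length throughout. It stood at 7.14 and 7.18 log2 CPM at 0 h in replicates A and B and at 8.80 and 8.91 at 6 h, its highest level. The rise of 1.69 (SE 0.18, 3.23-fold, limma adjusted p = 9.93e-09) was called in every alternative that was run. From there Rarg declined: it was at 8.25 and 8.43 at 24 h, 8.07 and 8.09 at 48 h, 7.25 and 6.92 at 72 h, and lowest at 108 h, at 6.31 and 6.41. The level at 24 h was still 1.17 above that at 0 h (SE 0.18, adjusted p = 4.36e-06), a call lost in 3 of the 4 fits that left out a library. Between 48 h and 72 h Rarg fell by 0.99 (adjusted p = 8.87e-05), close to the threshold, and this call was lost in 8 of the alternatives, among them quantile normalization (-0.71) and the omission of any 1 of the 4 libraries. At 120 h it was at 6.79 and 6.78, a difference from 0 h of -0.38 (SE 0.18, adjusted p = 0.0815) that was not called.

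Rara (ENSMUSG00000037992.10, chromosome 11, 98927818 to 98974942, plus strand), the most widely expressed receptor of the family, changed least. It was highest at 0 h in both replicates, at 5.97 and 6.02 log2 CPM, stood at 5.63 in both at 48 h, and had its lowest mean at 84 h, at 4.99 and 4.89. At 120 h it was at 5.05 and 5.19. None of its 20 steps of 6 h was called. The fall of 0.88 from 0 h to 120 h passed the threshold by little (SE 0.17, adjusted p = 9.61e-05), and it did not pass after the omission of any 1 of its 4 libraries (adjusted p from 6.87e-04 to 0.00305), so that the direction held and the call did not.

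Rarb (ENSMUSG00000017491.8, chromosome 14, 16430839 to 16819156, minus strand), whose DR5 is shown above, was near the limit of detection for the first 60 h. It had 7 reads in each library at 0 h (-1.66 and -1.68 log2 CPM), 2 and 0 at 6 h, 2 and 0 again at 36 h, and 6 and 1 at 48 h. The difference from 0 h to 6 h was -2.61 (SE 0.90, adjusted p = 0.0147) and was not called. As a ratio of the summed reads it was 0.153, with a 95% interval from counting error alone of 0.0168 to 0.664. Reads accumulated later: 10 and 13 at 66 h, 34 and 25 at 72 h, and 99 and 70 at 90 h, where the mean of Rarb was highest, with 1.58 and 0.90 log2 CPM. From 66 h on every library but replicate B at 96 h, with 7 reads, lay above both libraries of 0 h. The difference from 48 h to 72 h was 3.13 (SE 0.90, adjusted p = 0.00677, ratio of reads 7.66 with a counting interval of 3.5 to 19.9), which missed the threshold. At 120 h Rarb had 27 and 22 reads, and the difference from 0 h, 1.61 (SE 0.90), had an adjusted p of 0.136. With an SE near 0.9 the fit could call only very large changes of this gene.

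To compare the receptors with each other, levels were divided by the length of the merged exons of each gene (GENCODE vM21, GRCm38). Per kb of exon, Rarg was above Rara in 42 of 42 libraries, with a median difference of 2.17 on the log2 scale, and Rara was above Rarb in 42 of 42. Rarg made up a median of 81.7% of the summed receptor level per kb, from 68.2% to 89.8% over the libraries. Rara made up between 10.2% and 30.4%, and Rarb never more than 1.83%. The later reads of Rarb thus left the order of the receptors as it was at 0 h.

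The genes that govern the supply of retinal and retinoic acid came next. Dhrs3 (ENSMUSG00000066026.8, chromosome 4, 144892827 to 144928209, plus strand), which returns retinal to retinol, traced the clearest course of the 3. It was at 2.16 and 1.91 log2 CPM at 0 h and fell to 0.98 and 1.09 at 6 h, a difference of -0.997 (SE 0.17, limma adjusted p = 1.18e-05). Quantile normalization gave -0.55 for this early fall, which then missed the threshold (adjusted p = 0.00666), as it did with precision weights from voom (adjusted p = 9.88e-04) and without replicate A of 0 h or either library of 6 h. After its lowest point at 12 h, 0.56 and 0.47, Dhrs3 had a higher mean at each successive time point, with 2.28 and 2.21 at 48 h, 3.69 and 3.52 at 72 h and 4.79 and 4.74 at 96 h, its highest mean. The rise from 48 h to 72 h was 1.35 (SE 0.17, adjusted p = 4.52e-07). From 72 h to 96 h it rose by another 1.17 (adjusted p = 9.82e-06), and without replicate B at 96 h the same difference was 1.19 and missed the threshold (adjusted p = 1.18e-04), as did 1.08 without replicate B at 72 h (adjusted p = 7.42e-04). Dhrs3 then fell by 1.33 to 3.56 and 3.31 at 120 h (adjusted p = 1.97e-06, -1.36 without replicate B at 96 h, not called without replicate B at 120 h), most of it between 108 h (4.16 and 4.21) and 114 h (3.32 and 3.13). It still ended 1.40 above 0 h (SE 0.17, adjusted p = 6.01e-08), and the libraries of 0 h and 120 h did not overlap.

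Aldh1a2 (ENSMUSG00000013584.5, chromosome 9, 71215789 to 71296243, plus strand), the main enzyme that makes retinoic acid in the early embryo, had a short maximum at 6 h. Reads went from 14 and 15 at 0 h (-0.70 and -0.64 log2 CPM) to 97 and 52 at 6 h (1.82 and 1.61), a rise of 2.39 (SE 0.38, 5.24-fold, adjusted p = 5.12e-06) that was called in all but 3 of its alternatives, each of which left out a library. At 12 h it was already at 0.68 and 0.73. From 12 h to 90 h every library lay between -0.70 and 1.13, including replicate B at 30 h with 6 reads, the library of least depth, and the mean of Aldh1a2 was lowest at 108 h, at -1.57 and -0.38. It then stood at 0.50 and 0.69 at 114 h and at 1.03 and 1.14 at 120 h. The step from 108 h to 114 h, 1.57 (SE 0.38, adjusted p = 0.00358), and the difference from 0 h to 120 h, 1.76 (adjusted p = 2.84e-04), both missed the threshold. The correlation between the replicates over the 21 time points was 0.676, the lowest of the 9 genes, and its call over the whole course was lost in 35 of the 42 fits that left out a library.

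Rbp4 (ENSMUSG00000024990.6, chromosome 19, 38116629 to 38125281, minus strand), the carrier of retinol in blood, is a secreted protein made by liver and by visceral endoderm. It had 7 and 6 reads at 0 h (-1.66 and -1.89 log2 CPM), had its lowest mean at 30 h with 6 and 3, the latter in the library of least depth, and then increased to 1.19 and 1.36 log2 CPM at 72 h. From 48 h to 72 h the log2 level of Rbp4 rose by 1.996 (SE 0.35, adjusted p = 6.63e-05), a call that did not outlast the omission of any 1 of the 4 libraries. Its level stayed between about 1 and 1.7 until 108 h, except for replicate B at 96 h (0.25 against 1.39 in A), and was 0.40 and 0.18 at 120 h, 2.07 above 0 h (SE 0.35, adjusted p = 1.76e-05). That call too was lost without any 1 of its 4 libraries, with voom weights (adjusted p = 6.95e-04) and with quantile normalization (1.33, adjusted p = 0.00183). The 9 endoderm markers analysed summed to 12.6 and 14.1 CPM at 0 h, with Foxa2 at 0 reads, and to 46.4 and 48.3 at 120 h. Between these times 5 of them rose and none fell, beside 12.9% and 10.1% of all genes. Their part in the level of Rbp4 was not tested, and in a bulk library fewer cells of a type cannot be told apart from less RNA per cell.

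The cellular binding proteins exchanged places. Crabp1 (ENSMUSG00000032291.8, chromosome 9, 54764748 to 54773110, plus strand), which binds retinoic acid in the cytoplasm and is linked to its breakdown, was highest at 0 h, at 3.67 and 3.72 log2 CPM. It was at 3.24 and 3.31 at 6 h, 2.41 and 2.19 at 12 h and 1.20 and 1.45 at 24 h. The fall of 2.37 within the first day (SE 0.21, 5.17-fold, adjusted p = 6.56e-10) was called in every alternative, and the libraries of the 2 times lay far apart. From its lowest mean at 30 h Crabp1 returned in part, to 2.34 and 2.74 at 72 h and to 2.63 and 3.14 at 120 h. The differences of this return, 0.92 from 48 h to 72 h (SE 0.21, adjusted p = 0.00104) and 0.72 from 96 h to 120 h (adjusted p = 0.0178, and 0.65 with adjusted p = 0.0713 without replicate B at 96 h), were not called, and neither was that from 0 h to 120 h, -0.81 (adjusted p = 0.00206). The sum of the 6 fibroblast markers also fell in the first day, but it ended above its level at 0 h, unlike the mean of Crabp1. It was 24.2 and 28.0 CPM at 0 h, 7.5 and 7.7 at 24 h and 102 and 91.5 at 120 h. Between 0 h and 24 h 2 of the 6 fell and none rose, with Col3a1 and Dcn at 0 reads at 0 h and Postn at 0 reads at 24 h. Between 0 h and 120 h 4 rose and 1 fell. The 4 trophoblast markers summed to 17.5 and 16.1 CPM at 0 h, 2.9 and 3.1 at 24 h and 131 and 144 at 120 h. Of these 2 rose between 0 h and 6 h, 2 fell and none rose between 0 h and 24 h, and 4 rose between 0 h and 120 h. Over all genes 11.8% rose from 0 h to 6 h, 9.9% rose and 12.8% fell from 0 h to 24 h, and 12.9% rose and 10.1% fell from 0 h to 120 h. The part of either list in the course of Crabp1 was not tested.

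Crabp2 (ENSMUSG00000004885.5, chromosome 3, 87948666 to 87953376, plus strand), which hands retinoic acid to the receptors in the nucleus, was low for the first 54 h and increased later. It was at 1.40 and 1.74 log2 CPM at 0 h, had its lowest mean at 24 h with 0.85 and 0.97, and at 1.21 and 1.12 at 48 h. It then reached 3.44 and 3.73 at 72 h, a rise of 2.42 (SE 0.22, 5.34-fold, adjusted p = 3.06e-09), with the steepest step between 60 h (1.97 and 2.10) and 66 h (2.87 and 3.47). The highest level, 5.46 and 5.70, came at 114 h, and at 120 h Crabp2 was at 4.97 and 4.93. This was 3.38 above 0 h (SE 0.22, 10.4-fold, adjusted p = 3.93e-13), again in every alternative. At 96 h replicate B held 3.98 against 4.80 in replicate A. The difference from 72 h to 96 h was 0.81 with this library (adjusted p = 0.00678) and 1.22 without it, and was called in neither case. The 4 neuroectoderm markers analysed, of 6 listed, summed to 17.7 and 14.4 CPM at 0 h, with Zic1 at 0 reads, 63.6 and 57.7 at 6 h, 32.8 and 31.3 at 48 h, 90.4 and 84.0 at 72 h, 355 and 328 at 108 h and 202 and 187 at 120 h. Between 0 h and 6 h 3 of them rose (11.8% of all genes did), between 48 h and 72 h 1 (5.6%), and between 0 h and 120 h all 4 (12.9%). Their part in the courses of Crabp2 and of the genes that changed at 6 h was not tested.

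Per kb of exon, both libraries of Crabp1 lay above both of Crabp2 at each of the 11 time points from 0 h to 60 h, and both of Crabp2 lay above both of Crabp1 at each of the 8 from 78 h to 120 h. At 66 h and 72 h the levels of the pair overlapped.

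Cyp26a1 (ENSMUSG00000024987.5, chromosome 19, 37697798 to 37701536, plus strand), which oxidises retinoic acid and is itself switched on by it, had hardly any reads for the first 54 h. It had 0 and 3 reads at 0 h, 5 and 2 at 6 h, 1 and 1 at 24 h, 0 and 0 at 30 h and 3 and 0 at 48 h. In the 10 time points from 0 h to 54 h no library held more than 5 reads, so that differences among these times were not detectable at this depth. The mean level was then higher at each time point up to 108 h, with 8 and 9 reads at 60 h, 18 and 17 at 72 h, 57 and 77 at 84 h, 301 and 370 at 96 h and 373 and 393 at 108 h (3.45 and 3.81 log2 CPM). At 120 h Cyp26a1 had 253 and 201 reads, at 3.20 and 3.06 log2 CPM. From 72 h on every library lay above every library of the first 54 h.

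The rise of Cyp26a1 from 0 h to 120 h was 7.30 on the log2 scale (SE 0.76, adjusted p = 5.43e-09). Because replicate A had no read at 0 h, its size depends on the offset. It was 5.91 without that library and 8.69 without replicate B at 0 h, and it was called in both. As a ratio of summed reads the increase was 139-fold, with a 95% counting interval from 47.4 to 678. The differences within the rise were large but missed the threshold: 3.65 from 48 h to 72 h (SE 0.76, adjusted p = 3.99e-04) and 4.24 from 72 h to 96 h (adjusted p = 1.65e-04). The second was called with voom precision weights, which give noisy low values less influence (4.24, adjusted p = 4.71e-08), and with quantile normalization (4.50, adjusted p = 1.94e-05). Without replicate B at 96 h it was 3.90.

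Set beside its opposite number in synthesis, Cyp26a1 lay below Aldh1a2 per kb of exon, without overlap of their libraries, at all 13 time points from 0 h to 72 h and above it at all 7 from 84 h to 120 h. At 78 h the levels overlapped. The RNAs of Aldh1a2 and Cyp26a1 thus changed order per kb between 72 h and 84 h, and neither had a called 6 h step in that window. The enzymes themselves were not measured.

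**Figure D2:**
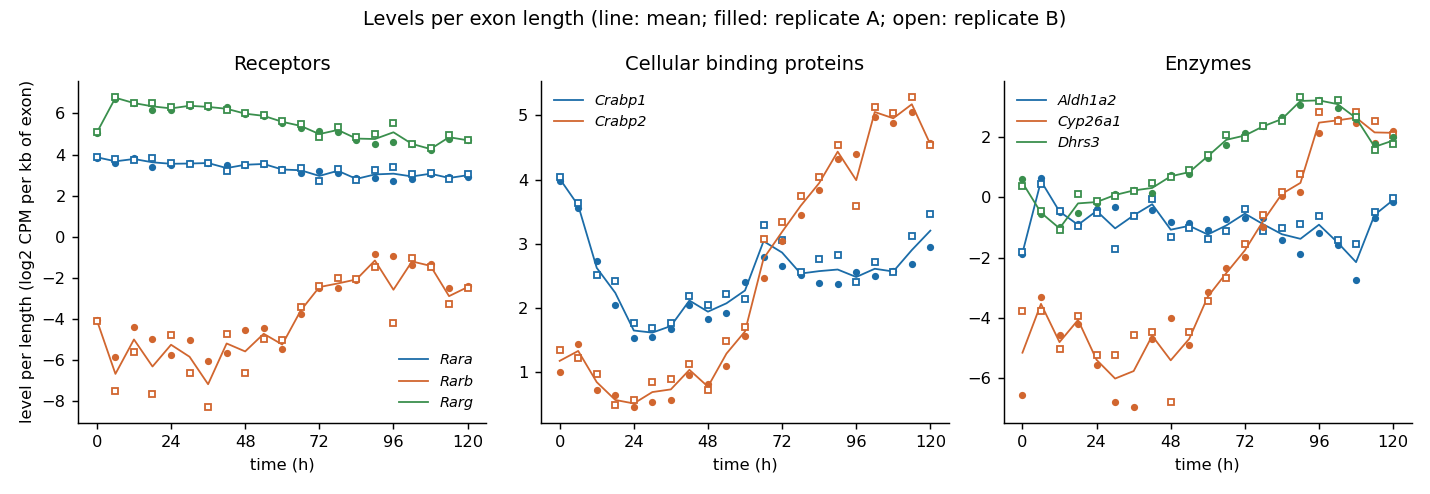
Level per kb of exon (log2 scale) against time in hours for the receptors, the cellular binding proteins and the enzymes, with lines for the mean of the 2 replicates, filled circles for A and open squares for B. Rarg stayed above Rara and Rara above Rarb in every library, Crabp2 passed Crabp1 between 60 h and 78 h, and Cyp26a1 passed Aldh1a2 between 72 h and 84 h.

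Over all 42 libraries the median levels per kb were in the order Rarg (5.52 on the log2 scale), Rara (3.34), Crabp1 (2.51), Crabp2 (1.63), Dhrs3 (1.36), Rbp4 (-0.23), Aldh1a2 (-0.85), Cyp26a1 (-3.23) and Rarb (-4.15). Neighbours below Rara in this order were not apart at all times: Rara exceeded Crabp1 in 35 of 42 libraries, Crabp1 exceeded Crabp2 in 24, Rbp4 exceeded Aldh1a2 in 24 and Cyp26a1 exceeded Rarb in 35. Crabp2 and Dhrs3 were an exception, with Crabp2 the higher in 42 of 42.

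Counted by comparison, the most genes were called from 0 h to 120 h (5), then from 48 h to 72 h (4) and from 0 h to 6 h (3). The 2 comparisons within the first day overlap, and Rarg was called in both. Between 0 h and 6 h, 2 of the 9 genes rose (Rarg and Aldh1a2) and 1 fell (Dhrs3), while 11.8% of all genes rose and 14.5% fell. Between 0 h and 24 h Rarg rose and Crabp1 fell, 1 gene each way beside 9.9% and 12.8% of all genes. Between 48 h and 72 h Crabp2, Dhrs3 and Rbp4 rose and Rarg fell, so that 3 of 9 were higher where 5.6% of all genes were, and 1 of 9 lower where 3.78% were. The median difference of the 9 genes in that window was 1.35, against 0.01 over all genes. From 0 h to 120 h Crabp2, Cyp26a1, Dhrs3 and Rbp4 rose and Rara fell, 4 and 1 of 9 beside 12.9% and 10.1% of all genes, with a median of 1.61 against -0.02.

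The other windows held few calls. Between 24 h and 48 h limma called 0 of the 9 genes, where 5.27% of all genes rose and 3.7% fell. At an unadjusted p below 0.05 there were 2, Dhrs3 (0.86, SE 0.17, adjusted p = 2.12e-04) and Rbp4 (0.89, SE 0.35, adjusted p = 0.0582), and no alternative at the same threshold gave a call. Between 72 h and 96 h only Dhrs3 rose (2.39% of all genes rose, 1.0% fell), and none was called without replicate B at 96 h, and between 96 h and 120 h Dhrs3 alone fell (1.25% and 0.686%). Of the 180 combinations of a gene and a 6 h step, 3 were called, all at the first step, against 1.77% of the 285920 combinations over all genes. The first step held 3762 of the 5068 calls over all genes, with 26.3% of genes called there. The count of 3 and its place are thus near the background. With at most 9 genes, a single call moves each of these shares by more than most of the background rates.

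**Figure D3:**
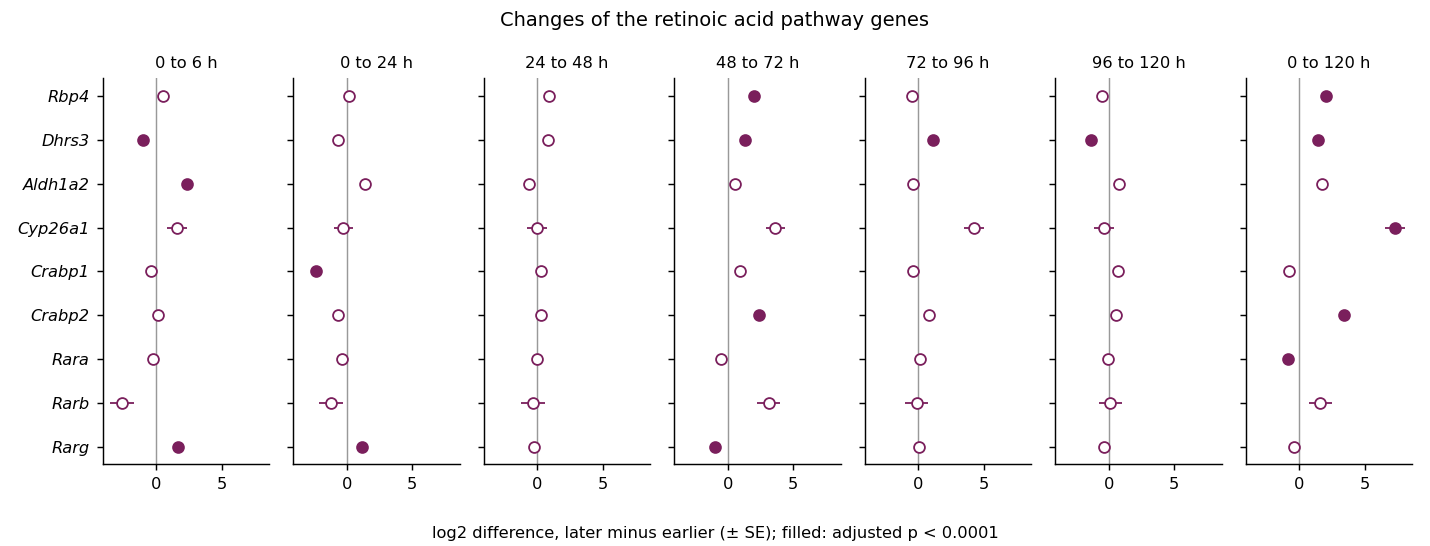
Difference on the log2 scale (later minus earlier, bars are the SE, 2 libraries at each time) for the 9 genes in 7 comparisons, with filled points for an adjusted p below 0.0001. The called points lie in the first 24 h for Rarg, Aldh1a2, Dhrs3 and Crabp1, between 48 h and 120 h for Dhrs3, Crabp2, Rbp4 and Rarg, and in the comparison of 0 h with 120 h for Crabp2, Cyp26a1, Dhrs3, Rbp4 and Rara, while Cyp26a1 and Rarb have the widest bars.

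At 96 h the replicates parted for some of these genes, as they did for many others. For each gene the difference between B and A at 96 h was set against its range at the other 20 time points, and it lay outside that range for 5 of the 9, where 42.6% of all genes did, so that the count is near the background. Replicate B was higher for Rarg by 0.94 (range elsewhere -0.33 to 0.44) and for Rara by 0.68 (-0.46 to 0.43). It was lower for Rarb by 3.27, beyond the lowest value elsewhere of -2.69, with 94 reads in A and 7 in B. Rbp4 and Crabp2 were also lower in B, with differences of -1.13 (lowest elsewhere -0.66) and -0.82 (lowest elsewhere -0.22). Cyp26a1, Aldh1a2, Dhrs3 and Crabp1 differed by 0.69, 0.55, -0.05 and -0.14, within their ranges. The primitive streak and pluripotency sums of this library are given above, its fibroblast markers summed to 9.2 CPM against 24.1 in A, and their part in these differences was not tested.

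**Figure D4:**
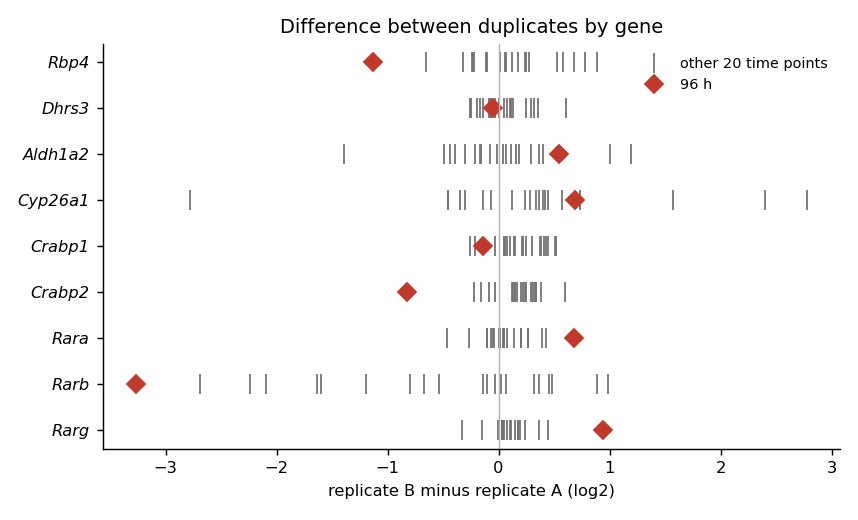
Difference between replicates B and A (log2) for each gene at 96 h (diamonds) and at the other 20 time points (ticks). The diamonds of Rara, Rarb, Rarg, Crabp2 and Rbp4 lie outside their ticks.

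The wider pathway was followed in a list of 68 further genes, of which 44 were among the genes analysed. Cyp26b1 and Cyp26c1, Aldh1a1 and Lrat were among those not analysed here. Over the course 35 of the 44 were called, beside 74.6% of all genes. From 0 h to 6 h 8 rose and 1 fell (11.8% and 14.5% of all genes) and from 0 h to 24 h 8 and 2 (9.9% and 12.8%). From 24 h to 48 h 2 rose and 5 fell (5.27% and 3.7%) and from 48 h to 72 h 2 and 3 (5.6% and 3.78%). From 72 h to 96 h 2 rose and none fell (2.39% and 1.0%), or 2 and 1 without replicate B at 96 h, and from 96 h to 120 h 2 rose and none fell (1.25% and 0.686%), or 1 and 0 without it. From 0 h to 120 h 10 rose and 4 fell (12.9% and 10.1%). Many of these counts are near the background.

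Among the genes of retinol uptake, Lrp2, a large endocytic receptor, rose by 6.00 from 0 h to 120 h (SE 0.38, adjusted p = 2.92e-13). Rbp7, an intracellular retinol carrier, rose by 1.84 between 24 h and 48 h. Stra6, the membrane receptor for RBP4, was called in none of the 7 comparisons, with values of -1.66 and -1.20 log2 CPM at 0 h and 0.75 and 0.61 at 72 h. The F test over the course did call Stra6 (limma adjusted p = 9.59e-07). Of the 9 analysed oxidoreductases of retinol and retinal, Rdh10, which makes retinal for synthesis, was the 1 that rose from 0 h to 120 h. It had a mean of 1.86 log2 CPM at 0 h and stood at 2.86 and 3.06 at 6 h (1.10, SE 0.15, adjusted p = 9.88e-07) and 4.75 and 4.77 at 120 h (2.90 above 0 h, adjusted p = 7.95e-15). Its first step coincided with those of Aldh1a2 and of Dhrs3, which acts in the reverse direction and fell. Aldh1a3, a relative of Aldh1a2, was at -0.81 and -0.95 log2 CPM at 0 h and 1.29 and 0.78 at 6 h, a difference of 1.92 that missed the threshold (adjusted p = 0.00347). Rdh13 rose by 0.63 from 0 h to 6 h, Dhrs4 by 0.95 from 0 h to 24 h, and Rdh11 fell by 1.40 from 0 h to 120 h.

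Fabp5, a lipid binding protein that passes retinoic acid and fatty acids to another class of nuclear receptor, rose by 1.89 between 24 h and 48 h (SE 0.19, adjusted p = 1.03e-08). Of the 3 RXR partners, Rxra and Rxrb had no called change in the 7 comparisons. Their means ranged over 1.82 and 0.65 on the log2 scale over the course, where the F test called Rxra (limma adjusted p = 5.40e-13) but not Rxrb (adjusted p = 2.59e-04). Rxrg rose by 2.24 from 0 h to 24 h (SE 0.37, adjusted p = 1.11e-05). Of the 14 receptor coregulators analysed, 3 rose from 0 h to 6 h, the coactivators Ncoa3 (1.32), Crebbp (1.64) and Ep300 (1.08), and none fell, beside 11.8% and 14.5% of all genes. Ncoa3 fell afterwards, by 1.03 from 24 h to 48 h and by 1.12 from 48 h to 72 h, and Kat2b, a histone acetyltransferase, fell by 1.15 in the latter window. Smaller called changes were those of Nsd1 (0.86 from 0 h to 24 h), Tbl1x (0.73) and Tbl1xr1 (-0.48), the last 2 from 0 h to 120 h.

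The 12 analysed genes known to respond to retinoids were all called over the course, where 74.6% of all genes were, but did not share a time. At the first step, from 0 h to 6 h, Meis1 (3.45), Meis2 (2.73) and Gbx2 (1.96) rose, all of them genes for homeodomain proteins. From 24 h to 48 h Meis1, Meis2 and Gbx2 fell by 2.55, 1.82 and 1.79, after which Meis2 rose again by 1.72 from 48 h to 72 h and by 1.75 from 72 h to 96 h (1.81 without replicate B at 96 h), while Gbx2 fell by a further 3.44 from 48 h to 72 h. Tgm2, transglutaminase, fell by 3.08 in the first day (SE 0.25, adjusted p = 9.12e-11) and by 1.41 in the second, then rose by 1.58 from 48 h to 72 h and by 1.76 from 96 h to 120 h, or 0.999 without replicate B at 96 h (adjusted p = 5.10e-05). Stra8, named for its stimulation by retinoic acid, was at 3.24 and 3.37 log2 CPM at 0 h, -3.39 and -3.37 at 72 h and 1.91 and 1.50 at 120 h, with no called difference among the 7 comparisons (from 0 h to 24 h -3.88, adjusted p = 1.88e-04). High levels at 0 h, low levels near 48 h to 72 h and a later return were thus seen for Tgm2 and Stra8, where Cyp26a1 started from 3 reads in all. From 0 h to 120 h Zfp703 rose by 5.83 and Meis2 by 3.97 on the log2 scale, and Gbx2 fell by 2.77. Zfp703 had only 1 and 7 reads at 0 h, and as a ratio of summed reads its increase was 47.5-fold (95% counting interval 23.9 to 111). Cyp1b1, Nr2f2 and Hoxb2 were also called as higher at 120 h and likewise had few reads or none at 0 h. Cyp1b1 had 2 reads in each library at 0 h, and its summed reads rose 105-fold (95% counting interval 40.7 to 387). Nr2f2 went from 0 and 2 reads to 782 and 660, a ratio of 664 with an interval from 183 to 5490. Hoxb2 had no read in either library at 0 h and 39 and 30 at 120 h, at least 21.2-fold higher against a floor of 3 reads over both libraries.

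**Figure D5:**
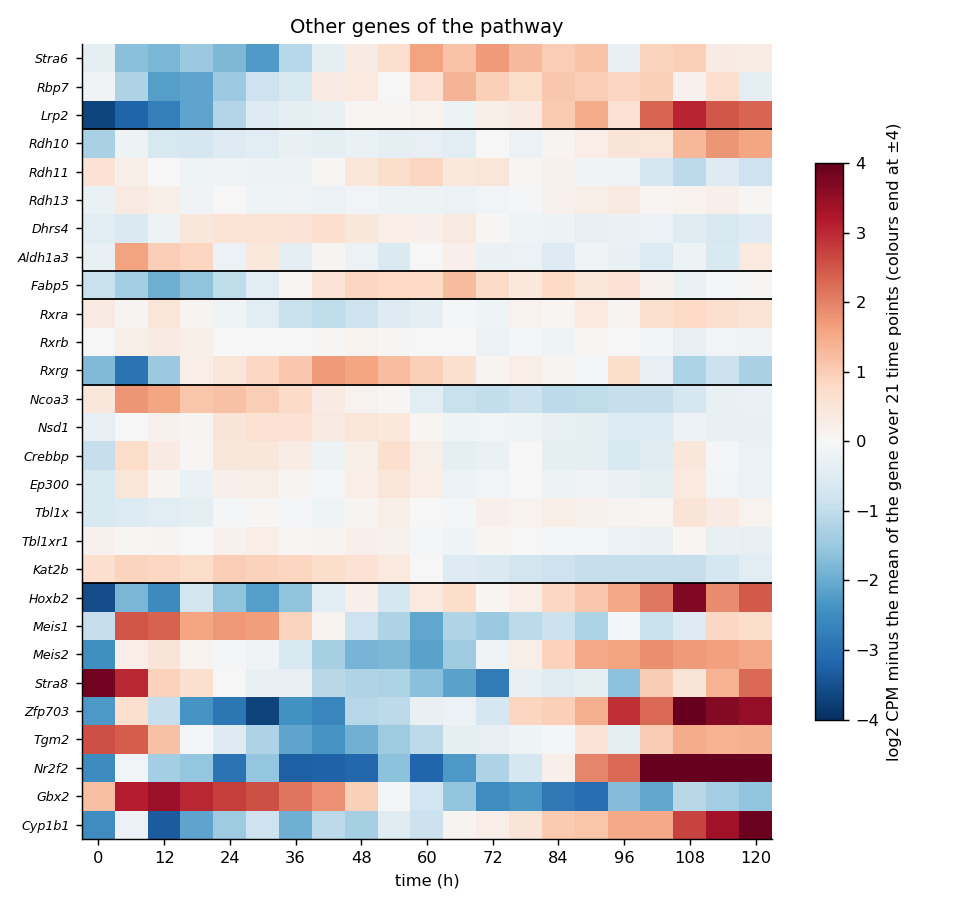
Mean level of the 28 further pathway genes named in the text at each time (hours), as log2 CPM minus the mean of the gene over the 21 time points, from blue (lower) to red (higher), with lines between uptake, oxidation and reduction, lipid binding, receptor partners, coregulators and responsive genes. Meis1, Meis2 and Gbx2 are higher at 6 h than at 0 h, Tgm2 and Stra8 are high at 0 h and low in the middle, and Hoxb2, Zfp703, Nr2f2 and Cyp1b1 are highest late.

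Likeness of shape was described by Pearson's r over the 21 time points, taken in each replicate course separately. The points share a library across genes and follow each other in time, so that r is a description and genes that rise late all score high. Among the 9 genes the closest pair was Crabp2 and Cyp26a1, with r of 0.966 in A and 0.947 in B. By the weaker of the 2 correlations Rarb and Rarg ran most nearly opposite (-0.914 and -0.90), and in A alone Rarg and Dhrs3 did (-0.926). Dhrs3 was close to Rarb (0.896 and 0.811), Rbp4 (0.888 and 0.804) and Crabp2 (0.885 and 0.858). Crabp1 and Aldh1a2 resembled the others least, with r between -0.43 and 0.40 for Crabp1, and -0.60 to 0.70 for Aldh1a2.

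Ranked by the lower of the 2 correlations among genes that averaged 0 log2 CPM or more, the genes most like Crabp2 were Vwa5a (0.977), Ptprm (0.977) and Stmn2 (0.975), and those most like Cyp26a1 were Csf1 (0.954), Ptprm (0.951) and Maged2 (0.95). Dhrs3 was most like Tdrd5 (0.972), Ppm1h (0.96) and Mtch1 (0.957). For Rarg these were Opa3 (0.953), Ccnf (0.951) and Enox1 (0.951), and for Rara Usp5 (0.889), Zfp598 (0.889) and Cbx7 (0.88). Rarb was followed by Gstm5 (0.913), Ttyh1 (0.90) and Nenf (0.898), Rbp4 by Tmem200a (0.914), Anks6 (0.914) and Fam149a (0.911), and Crabp1 by Ndrg4 (0.911), Pla2g15 (0.839) and Padi2 (0.831). Aldh1a2 had no near neighbour: Atg3, Mccc1 and Ttc30a1 came first with 0.661, 0.651 and 0.64. Of all the genes named here, Ptprm was the only one to stand among the 3 nearest of 2 members.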

How the data were processed

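Stranded poly-A libraries from duplicate courses, 21 time points each, were analysed (42 samples). Per the labels and the study's methods, the authors used Trim Galore for trimming and TopHat2 for alignment to mm10, counted GENCODE vM2 genes with HTSeq, retained genes above 1 CPM in at least 2 samples, scaled for library size with edgeR and applied voom. Tool versions are not given in the sources used here. The deposited values are log2 CPM. Each mapped to a whole read count within 2.91e-08, which gave the reads quoted, the depth of each library (10120972 to 51652434) and a 3-read floor. Intervals of ratios are exact binomial at 95% and cover counting error only.

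Genes were matched to GENCODE vM21 (14177 of 14296). Differences between time points were fitted with limma 3.58.1 in R 4.3.3 (lmFit, eBayes with trend) on all genes and samples, with 21 residual degrees of freedom, and a Benjamini-Hochberg adjustment was made in each comparison over all genes, with a threshold of 0.0001 as in the study. The letters A and B name the 2 courses by the study's design and were used as a block in an alternative. As a check, same-letter residuals were correlated between time points (mean r 0.08, 210 pairs, 47.1% of them above 0.1). Other alternatives were a threshold of 0.05, voom weights, total-count and quantile scaling, no trend, a filter at a mean of 0 log2 CPM, adjustment over all comparisons and omission of each library. The fit was tested on simulated data.

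Named genes were the 9 members, the other pathway genes past the threshold (Stra6, Aldh1a3, Stra8, Rxra and Rxrb are named after their values were seen), and for each member the 3 genes most like it. Some results of that rule are not reported here. The members and lists were chosen with earlier results of these data known. Python 3.11.15, numpy 2.4.6, pandas 2.3.3 and matplotlib 3.10.9 were used.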

Additional observations from a re-analysis of the deposited data

How the results depend on the processing

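Of the 63 differences between time points (9 genes, 7 comparisons), 16 were called, and 7 of these were called in every alternative that fitted the gene: Rarg from 0 to 6 h, Crabp1 from 0 to 24 h, Crabp2 and Dhrs3 from 48 to 72 h, and Crabp2, Cyp26a1 and Dhrs3 from 0 to 120 h. Cyp26a1, with a mean of -1.17 log2 CPM over the course, was not fitted under the filter at a mean of 0. No called difference changed sign. A call was lost in 28 of 64 omissions of a library and in 12 of 127 other alternatives. The latter include the threshold of 0.05 on the same fit, where no call can be lost. With the replicate block 3 genes changed from 0 to 6 h as without it, the count over the course went from 9 to 8 (Aldh1a2, adjusted p = 0.000115), and no other call changed. At adjusted p below 0.05 the counts rose from 2 to 5 (0 to 24 h), 0 to 1 (24 to 48 h), 4 to 8 (48 to 72 h), 1 to 3 (72 to 96 h), 1 to 2 (96 to 120 h) and 3 to 15 (6 h steps). From 48 to 72 h 2 genes passed the threshold with quantile normalization and with p adjusted over all comparisons. From 72 to 96 h voom weights and quantile normalization gave 2. The causes were not tested. Total-count scaling shifted library medians by up to 0.18 and quantile normalization by up to 0.10 on the log2 scale.

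With 1 library left out, the count ranged from 8 to 9 over the course, from 1 to 2 for 0 to 6 h and for 0 to 24 h, was 0 for 24 to 48 h, ranged from 2 to 3 for 48 to 72 h, from 0 to 1 for 72 to 96 h (0 without 72 h B or 96 h B) and for 96 to 120 h (0 without 120 h B), was 3 for 0 to 120 h whichever of the 4 libraries was left out, and ranged from 1 to 5 for the steps. It was 1 for 0 to 6 h without 0 h A or 6 h A, 1 for 0 to 24 h without 0 h A, 0 h B or 24 h B, and 2 for 48 to 72 h without 72 h A, 48 h B or 72 h B. The 5 steps were found without 96 h A.

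Differences that were not called turned sign in these cases. With voom weights Rarb was 0.039 (72 to 96 h) and -0.033 (96 to 120 h) and Cyp26a1 0.001 (24 to 48 h), and with total-count scaling Crabp2 was -0.064 (0 to 6 h). With 1 library left out, the range spanned 0 for Rara (-0.23 to 0.45), Rarb (-1.762 to 1.504), Rarg (-0.384 to 0.557) and Rbp4 (-1.021 to 0.112) from 72 to 96 h, for Rara (-0.416 to 0.264), Rarb (-1.504 to 1.761), Rarg (-0.86 to 0.081), Cyp26a1 (-0.682 to 0.005) and Rbp4 (-1.093 to 0.04) from 96 to 120 h, for Rarb (-1.37 to 0.722) and Cyp26a1 (-1.406 to 1.377) from 24 to 48 h, for Cyp26a1 (-1.627 to 1.151) from 0 to 24 h and for Crabp2 (-0.013 to 0.323) from 0 to 6 h. Of these reversals 8 came from leaving out 96 h B.

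Depth limits Cyp26a1 before 60 h, Rarb before 66 h and Rbp4 and Aldh1a2 at 0 h, where few reads set the values. With 2 libraries per time point from 1 cell line, p-values measure the spread between these cultures, and a difference that was not called is not shown to be absent.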
